A study of Mus musculus with 21 samples.

Results

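Transcripts of the cytotoxic granule were followed in cultured mouse CD4 T cells through 9 genes: the granzymes GZMA, GZMB and GZMC, the pore former PRF1, the granule membrane gene NKG7, the granule-associated peptidase CTSW, the natural killer receptor chain KLRD1, and the serpins SERPINB9 and SERPINB6B. The 9 genes were chosen with earlier results of these data known, and were taken by name from a deposited table of 23415 gene symbols. All 9 were present. Each was read in every one of the 7 groups of the study, in the 16 of 21 libraries that had at least 7000 genes at 1 TPM or more. TPM is the share of a library that a gene holds after correction for transcript length, so levels of different genes can be set side by side.

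Cytotoxic lymphocytes kill by releasing granules in which perforin and granzymes are packed together: perforin opens the membrane of the target cell and granzymes, which are serine proteases, enter and cleave proteins there. Cells that carry granzymes also make clade B serpins in the cytosol, which trap granzymes that leak from the granule; in the mouse SERPINB9 (Spi6) inhibits granzyme B and SERPINB6B inhibits granzyme A. The programme is best known from CD8 T cells and natural killer cells, and part of it can be found in CD4 T cells of the T helper 1 type, which are made with IL-12 through STAT4 and the T-box factor T-bet.

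All cells were naive CD4 T cells of mice heterozygous for a reporter at the Il23r locus (Il23r wt/eGFP), in which one allele carries IRES-eGFP and is a functional knockout of Il23r, so every group had a single working Il23r allele. They were sorted from spleen and lymph nodes, stimulated on plates with anti-CD3 and anti-CD28, cultured for 5 days, and sorted by eGFP before bulk RNA sequencing with a SMART-Seq2 protocol. The kept libraries were 3 of IL-12+IL-21 GFPpos, 2 of IL-12+IL-21 GFPneg, 2 of IL-12 GFPneg, 3 of IL-1b+IL-6+IL-23 GFPpos, 3 of IL-1b+IL-6+IL-23 GFPneg, 1 of TGFb+IL-6 GFPpos and 2 of TGFb+IL-6 GFPneg. IL-12, IL-21, IL-1b and IL-23 were given at 20 ng/ml, IL-6 at 25 ng/ml and TGF-b at 2 ng/ml. The sex and age of the mice and how many animals stood behind a library were not given in the labels, and nothing says that replicates came from separate cultures, and the p-values below therefore speak of the spread among these libraries alone, part or all of which could be technical.

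Kept libraries had 7522 to 9248 genes at 1 TPM or more, and the 5 that were left out had 190 to 5608. Read depth was unknown, as TPM does not keep it. The left-out libraries were IL-12+IL-21 GFPneg replicate 3, IL-12 GFPneg replicate 1, TGFb+IL-6 GFPpos replicates 2 and 3, and TGFb+IL-6 GFPneg replicate 3. The transcript row of the reporter, EGFP_IRES_IL23R, stood at 23.3 to 35.0 TPM in the IL-12+IL-21 GFPpos cells and at 2.04 to 5.29 in the GFPneg cells. In the IL-1b+IL-6+IL-23 culture it was 17.4 to 32.3 TPM in sorted GFPpos cells against 0 to 1.74 in GFPneg cells, and 9.64 TPM in the TGFb+IL-6 GFPpos library against 0 to 0.75 in the GFPneg ones. In IL-12 GFPneg cells, from a culture with no GFPpos group, it was 0.7 to 1.23 TPM. The GFPneg gate may thus hold a different part of each culture, which comparisons between cultures cannot tell apart from the cytokines. The summed level of 6 CD4 T cell genes (CD3E, CD3D, CD3G, CD4, CD5, CD28) was 1028 to 2072 TPM. Of 8 natural killer cell markers, 5 (NCR1, KLRB1C, KLRA8, TYROBP and FCER1G) were listed at 0 in all 16 libraries and all 8 together summed to at most 2.34 TPM, a value of IL-12+IL-21 GFPpos, and to at most 0.63 TPM in the other groups. CD8A did not exceed 0.29 TPM, while CD8B1 lay between 4.89 and 17.5 TPM with its highest value in the TGFb+IL-6 GFPpos library. In bulk samples such as these, fewer cells that carry a transcript and less of it per cell cannot be told apart.

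The 9 genes fell into 3 kinds of pattern across the cultures. GZMB, NKG7, SERPINB9 and SERPINB6B were highest in cells grown with IL-12 alone and near their lowest in cells grown with TGFb+IL-6. CTSW and KLRD1 had their highest values in TGFb+IL-6, while their order over the other cultures differed, with CTSW lowest in both IL-1b+IL-6+IL-23 sorts. GZMA, GZMC and PRF1 were close to 0 in every culture. Together the 9 genes summed to 921 to 1273 TPM in the IL-12+IL-21 GFPpos libraries, 603 to 836 in IL-12+IL-21 GFPneg and 2443 to 3466 in IL-12 GFPneg, but to no more than 77.5 in any library of the other cultures. NKG7 made up most of the sum in the IL-12 cultures.

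**Figure D1:**
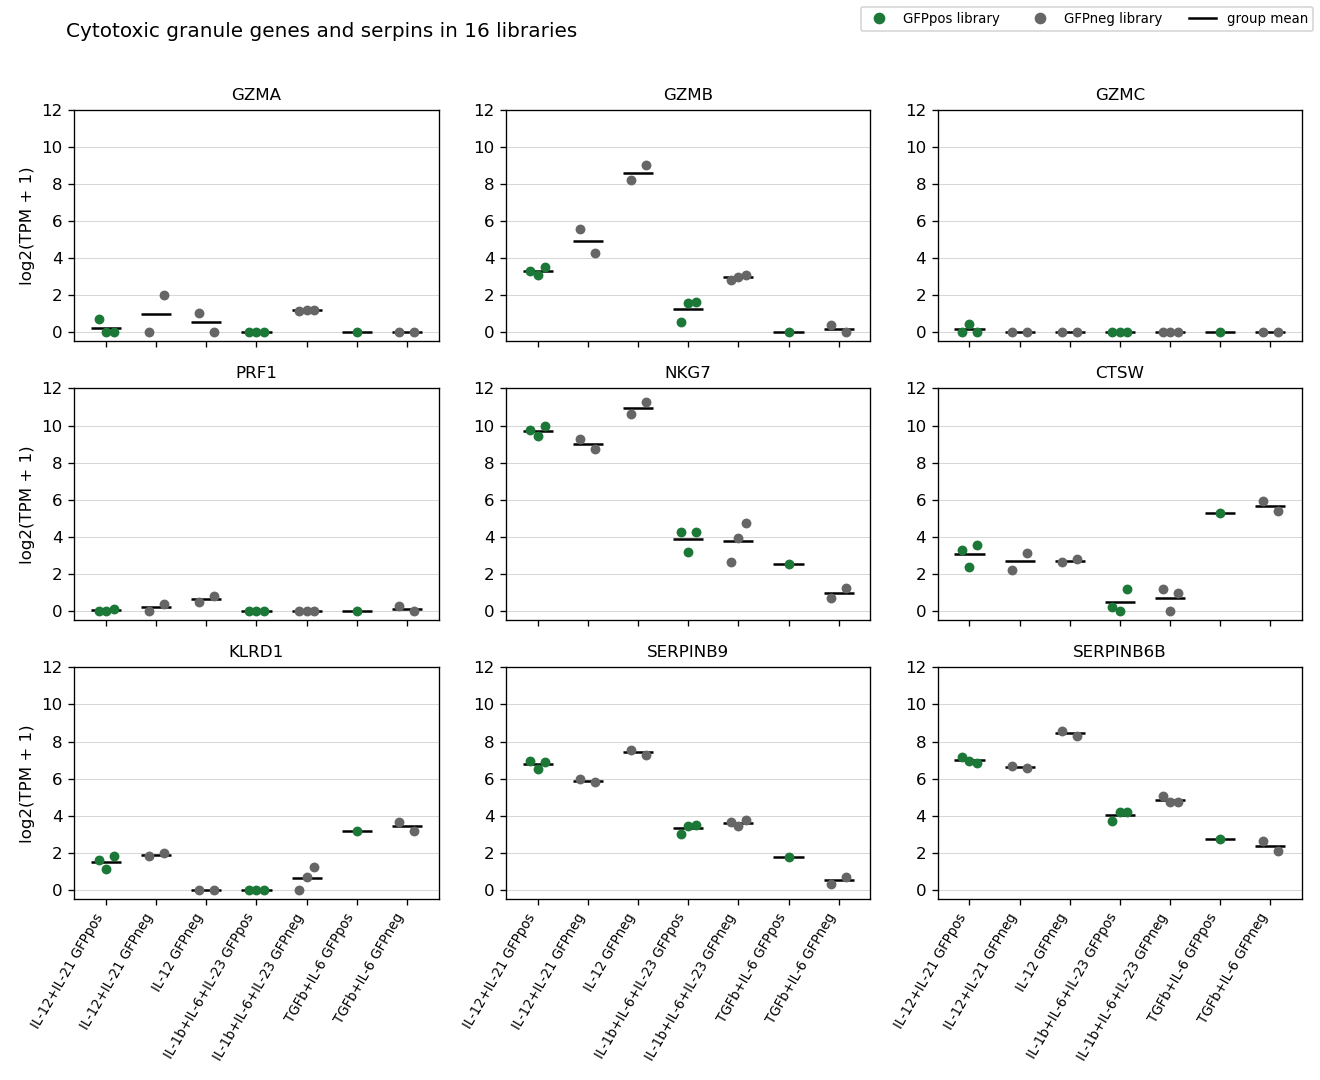
Level of each of the 9 genes in the 16 kept libraries, as log2(TPM + 1) on the vertical axis, by culture and eGFP sort on the horizontal axis (points are libraries, green for GFPpos and grey for GFPneg; bars are group means). NKG7, SERPINB9 and SERPINB6B stand high in all 7 libraries grown with IL-12 and GZMB in the 2 grown with IL-12 alone, CTSW and KLRD1 in the 3 grown with TGFb+IL-6, and GZMA, GZMC and PRF1 stay below 3 TPM throughout.

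GZMB encodes granzyme B, which cleaves after aspartate and activates caspases. It lies on chromosome 14 (GRCm38 chr14:56258838-56262260, minus strand, 5 exons). GZMB had 8.72, 7.58 and 10.3 TPM in the IL-12+IL-21 GFPpos libraries, against 47.0 and 18.2 in IL-12+IL-21 GFPneg ones. It had 290.4 and 509 TPM in IL-12 GFPneg libraries. It had 0.49, 2.00 and 2.12 TPM in the IL-1b+IL-6+IL-23 GFPpos libraries against 5.91, 6.95 and 7.48 in GFPneg ones, and 0 in the TGFb+IL-6 GFPpos library against 0.31 and 0 in the GFPneg ones. In order of their means, IL-12 GFPneg, IL-12+IL-21 GFPneg, IL-12+IL-21 GFPpos, IL-1b+IL-6+IL-23 GFPneg and IL-1b+IL-6+IL-23 GFPpos followed each other with no overlap between neighbours, and only the last step, between both TGFb+IL-6 sorts, overlapped.

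GZMC, another granzyme of the same cluster, lies 24182 bases from GZMB on the same strand (chr14:56231441-56234656), and was listed at 0 in 15 of 16 libraries and at 0.36 TPM in IL-12+IL-21 GFPpos replicate 2. Of its windows of the read length, 38 bases, 10.9% also occur in another gene of the GENCODE annotation, so low values of GZMC could hold reads of its copies; for GZMB the share was 0.858%. GZMA, the tryptase granzyme (chr13:113093825-113100981, minus strand), reached 2.96 TPM in 1 IL-12+IL-21 GFPneg library and 0 in the other. It had 0 TPM in all 3 of the IL-1b+IL-6+IL-23 GFPpos libraries against 1.18, 1.25 and 1.33 in the 3 GFPneg ones, and these did not overlap, but the limma test of this difference did not pass (adjusted p = 0.394). The 7 other granzymes of the table, GZMD to GZMG, GZMK, GZMM and GZMN, were at most 1.13 TPM, and GZMG and GZMN were listed at 0 in all 16 libraries. GZMB was thus the one granzyme with more than 3 TPM in any kept library. PRF1, the pore former (chr10:61297833-61304680, plus strand), was at 0.39 and 0.78 TPM in IL-12 GFPneg libraries and at no more than 0.31 elsewhere, and it was listed at 0 in 11 of 16 libraries. GZMC and PRF1 never reached 1 TPM and were therefore left out of the main tests, which needed 1 TPM in at least 3 libraries. In a limma fit with no such filter, PRF1 was called between IL-12 and IL-1b+IL-6+IL-23 GFPneg cells. It was also called there between IL-12 and TGFb+IL-6 GFPneg cells, with all values below 1 TPM.

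The stretches before the starts of GZMB and of its near-silent neighbour GZMC are shown because both genes lie side by side and differed so widely. RefSeq sequences of GRCm38.p6 are given 5′ to 3′ on the gene's minus strand, for chr14:56262335-56262584 and chr14:56234658-56234907, with capitals on matches, on either strand, to the RUNX letters TGTGGT and to the AP-1 letters TGANTCA, which read the same on both strands.
GZMB: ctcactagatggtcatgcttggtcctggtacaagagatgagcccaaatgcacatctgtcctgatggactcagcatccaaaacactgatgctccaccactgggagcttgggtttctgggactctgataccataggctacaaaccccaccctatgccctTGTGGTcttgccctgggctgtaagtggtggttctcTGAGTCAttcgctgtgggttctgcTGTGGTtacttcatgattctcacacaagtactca
GZMC: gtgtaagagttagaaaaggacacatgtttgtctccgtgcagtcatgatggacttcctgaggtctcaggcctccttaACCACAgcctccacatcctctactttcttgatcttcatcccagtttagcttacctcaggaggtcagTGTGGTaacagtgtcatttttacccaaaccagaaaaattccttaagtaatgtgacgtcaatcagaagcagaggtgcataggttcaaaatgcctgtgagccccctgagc
GZMB held 2 RUNX matches and 1 AP-1 match, and GZMC held 2 RUNX matches, 1 on each strand. Of 32851 RefSeq promoters, 14.0% held the RUNX letters and 6.75% the AP-1 letters in the 250 bases before the start. Of the 7 members with a promoter in the table, 5 held the RUNX letters and 1 the AP-1 letters. No matches overlapped in these windows, and a match is only a run of letters.

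NKG7, a membrane protein of the granule that is needed for efficient release of its content, was the most abundant of the 9 genes wherever IL-12 was given. It is a short gene of 4 exons (chr7:43437073-43438249, plus strand). NKG7 had 874, 691 and 1019 TPM in the IL-12+IL-21 GFPpos libraries, against 619 and 420.4 in GFPneg ones. It had 1574 and 2477 TPM in IL-12 GFPneg libraries. It had 18.1, 7.97 and 18.3 TPM in the IL-1b+IL-6+IL-23 GFPpos libraries against 5.23, 14.5 and 25.5 in GFPneg ones, and 4.75 in the TGFb+IL-6 GFPpos library against 0.61 and 1.35 in the GFPneg ones. All 7 libraries grown with IL-12 lay above all 9 others, the nearest values being 420.4 and 25.5 TPM. In the culture with IL-1b the GFPneg range enclosed the GFPpos one.

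The stretch before the start of NKG7 (chr7:43436888-43437072, plus strand, RefSeq GRCm38.p6, ended where GENCODE places the first exon) is shown for the largest of the culture differences, with capitals on the STAT letters TTCNNNGAA, a palindrome, and on the RUNX letters on either strand.
NKG7: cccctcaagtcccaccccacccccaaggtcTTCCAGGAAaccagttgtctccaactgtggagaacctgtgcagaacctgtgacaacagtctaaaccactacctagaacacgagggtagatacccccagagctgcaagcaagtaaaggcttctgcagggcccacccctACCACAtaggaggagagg
In the window of 250 bases before the RefSeq start, NKG7 also held the T-box half-site GGTGTGA, at position -13 and thus past the printed stretch. The T-box half-site stood in 3.33% of all RefSeq promoter windows and the STAT letters in 7.02%, and among the 7 members with a promoter NKG7 was the one with either.

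SERPINB9 and SERPINB6B lie 24183 bases apart on the plus strand of chromosome 13 (chr13:33003250-33017957 and chr13:32965209-32979067) and were ordered alike over the groups. SERPINB9 had 123, 92.0 and 118 TPM in the IL-12+IL-21 GFPpos libraries against 62.5 and 55.1 in GFPneg ones, and 189 and 156 in IL-12 GFPneg. It had 7.06, 9.83 and 10.5 TPM in the IL-1b+IL-6+IL-23 GFPpos libraries against 11.7, 9.94 and 12.4 in GFPneg ones, and 2.46 in the TGFb+IL-6 GFPpos library against 0.24 and 0.65 in the GFPneg ones. The 3 IL-12+IL-21 GFPpos values thus lay above both GFPneg values and below both IL-12 values, while both sorts of IL-1b+IL-6+IL-23 overlapped.

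SERPINB6B had 141, 125 and 113 TPM in the IL-12+IL-21 GFPpos libraries against 101 and 95.5 in GFPneg ones, and 383 and 316 in IL-12 GFPneg. It had 12.1, 17.1 and 17.5 TPM in the IL-1b+IL-6+IL-23 GFPpos libraries against 32.7, 25.7 and 26.3 in GFPneg ones, and 5.61 in the TGFb+IL-6 GFPpos library against 5.20 and 3.27 in the GFPneg ones. No 2 neighbouring groups overlapped in the order of their means, although the TGFb+IL-6 GFPpos library stood little above the higher GFPneg one. Within a library, SERPINB6B was 0.956 to 2.78 times SERPINB9 in the 13 libraries of the IL-12 and IL-1b cultures. It was 2.28 times SERPINB9, within that range, in the TGFb+IL-6 GFPpos library, but 21.7 and 5.03 times in the GFPneg ones, where SERPINB9 was below 1 TPM. Over the 16 libraries their log2 levels had a Pearson r of 0.979, a description of points that share libraries and cultures. Of 38-base windows, 2.45% in SERPINB9 and 5.29% in SERPINB6B also occur in other genes, chiefly SERPINB9B and SERPINB6C, which did not exceed 3.86 and 1.39 TPM.

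The stretches before both serpins are shown because the genes had the same order of group means (SERPINB9, chr13:33004291-33004540; SERPINB6B, chr13:32965011-32965208, ended at the first GENCODE exon; plus strand, RefSeq GRCm38.p6). None of the T-box, STAT, RUNX and AP-1 letters stood in either window of 250 bases, so no letters are in capitals, and this says only that these letters are not there. A shorter T-box form, GGTGTG, was also searched: it stood in both serpins (at -170 and, on the other strand, at -164) and in NKG7, thus in 3 of 7 members, and in 16.3% of all promoter windows. The RefSeq start of SERPINB9 lies inside the GENCODE locus given above.
SERPINB9: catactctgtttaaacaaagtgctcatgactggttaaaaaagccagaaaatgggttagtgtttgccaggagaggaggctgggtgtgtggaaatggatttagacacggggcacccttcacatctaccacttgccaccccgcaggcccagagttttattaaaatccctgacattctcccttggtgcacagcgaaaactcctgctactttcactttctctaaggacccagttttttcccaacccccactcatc
SERPINB6B: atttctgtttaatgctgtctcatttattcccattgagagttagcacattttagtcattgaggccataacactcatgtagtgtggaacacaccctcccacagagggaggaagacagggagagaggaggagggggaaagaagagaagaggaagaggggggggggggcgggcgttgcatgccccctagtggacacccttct

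CTSW and KLRD1 were highest in TGFb+IL-6. CTSW encodes cathepsin W, a cysteine peptidase found in CD8 T cells and natural killer cells (chr19:5465043-5468507, minus strand); it overlaps Fibp on the other strand, which reached 30.2 TPM, and a SMART-Seq2 library does not mark strand, so reads of the shared stretch cannot be told apart. CTSW had 8.94, 4.26 and 10.85 TPM in the IL-12+IL-21 GFPpos libraries, 3.68 and 7.92 in GFPneg ones, and 5.29 and 5.87 in IL-12 GFPneg. It had 0.16, 0 and 1.30 TPM in the IL-1b+IL-6+IL-23 GFPpos libraries against 1.29, 0 and 0.98 in GFPneg ones, and 37.9 in the TGFb+IL-6 GFPpos library against 59.3 and 41.4 in the GFPneg ones. The 3 TGFb+IL-6 libraries lay above all 13 others, the 3 groups with IL-12 overlapped each other in range, and the IL-1b+IL-6+IL-23 libraries were lowest. Beside these values, the natural killer markers summed to at most 0.43 TPM and CD8A to at most 0.13 in the TGFb+IL-6 libraries. CD8B1, the other CD8 marker, had 17.54 TPM in the GFPpos library and 9.18 and 6.15 TPM in the GFPneg ones, against 4.89 to 17.4 TPM in the 13 other libraries, and its part in the CTSW and KLRD1 values was not tested.

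KLRD1 encodes CD94, which pairs with NKG2 chains such as NKG2A, the product of KLRC1, into receptors for the nonclassical class I molecule Qa-1 (chr6:129591782-129598775, plus strand). KLRD1 had 2.01, 1.19 and 2.51 TPM in the IL-12+IL-21 GFPpos libraries, 2.50 and 3.02 in GFPneg ones, and was listed at 0 in both IL-12 GFPneg libraries. It was listed at 0 in all 3 of the IL-1b+IL-6+IL-23 GFPpos libraries, against 0, 0.64 and 1.36 TPM in GFPneg ones, and had 8.02 TPM in the TGFb+IL-6 GFPpos library against 11.7 and 8.11 in the GFPneg ones. KLRC1, 67240 bases away on the other strand, stood highest in the same libraries, with 6.98 TPM in TGFb+IL-6 GFPpos and 9.34 and 8.77 in GFPneg. KLRC1 had 2.63, 1.93 and 4.37 TPM in the IL-12+IL-21 GFPpos libraries against 4.18 and 3.29 in GFPneg ones, and 0 and 1.29 in IL-12 GFPneg. In the IL-1b+IL-6+IL-23 culture KLRC1 had 1.24, 1.2 and 2.00 TPM in GFPpos libraries, where KLRD1 was at 0, and 0.95, 0.50 and 2.47 TPM in GFPneg ones. The Pearson r of the KLRD1 and KLRC1 log2 levels was 0.908 over 16 libraries. KLRE1 and KLRK1, which lie closer to KLRD1, did not exceed 2.25 and 1.39 TPM.

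Differences between groups were tested with limma on log2(TPM + 1) over 9592 genes, and a gene was called at a Benjamini-Hochberg adjusted p under 0.05. Of the 9 genes, 7 passed the filter of 1 TPM in at least 3 libraries. As a gene that is high in 1 culture passes through that culture, the counts below describe the 7 tested genes and not the list as a whole. The genes were also chosen with earlier results of these data known. A share of calls above that of all genes is therefore a description and not a test of the list. The share of all genes whose libraries did not overlap between groups was not computed, so a lack of overlap only describes the gene named. On this scale changes of low genes are understated, and all groups shared 1 estimate of the spread.

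The question of how a T helper 1 type culture differs from a T helper 17 type culture was addressed at one eGFP gate. IL-12 GFPneg cells had 5 of the 7 tested genes higher than IL-1b+IL-6+IL-23 GFPneg cells and none lower, where 7.01% of all tested genes were called. NKG7 averaged 2025 ± 639 TPM in IL-12 GFPneg and 15.1 ± 10.1 TPM in IL-1b+IL-6+IL-23 GFPneg cells (SD, n = 2 and 3; log2 change 7.18 ± 0.47 SE, limma adjusted p = 6.81e-08). GZMB averaged 400 ± 155 and 6.78 ± 0.799 TPM in these groups (5.64 ± 0.39, limma adjusted p = 1.41e-07). SERPINB9 and SERPINB6B rose by 3.81 ± 0.23 and 3.59 ± 0.22 on the log2 scale, a ratio of means of 15.2 and 12.4, and CTSW by 1.99 ± 0.45 (limma adjusted p = 0.0132), a call lost without either IL-12 library or without IL-1b+IL-6+IL-23 GFPneg replicate 2 (0.0522 to 0.111) and with a pseudocount of 0.1 (0.0644). The median log2 change was 3.59 over the 7 genes and 0.09 over all tested genes. With IL-12 GFPneg replicate 1 and TGFb+IL-6 GFPpos replicate 2 added to the fit, 1 of the 7 genes was called, NKG7. That IL-12 library had 742 TPM of NKG7, but 12.05 of GZMB, 3.50 of SERPINB9 and 2.34 of SERPINB6B.

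The same comparison was made with IL-21 added. IL-12+IL-21 GFPneg cells also had 5 of the 7 tested genes higher than IL-1b+IL-6+IL-23 GFPneg cells and none lower, where 3.41% of all genes were called. The log2 changes were 5.23 ± 0.47 for NKG7, 2.28 ± 0.23 for SERPINB9, 1.78 ± 0.22 for SERPINB6B, 1.97 ± 0.39 for GZMB and 1.97 ± 0.45 for CTSW. KLRD1 was just outside the threshold (1.26 ± 0.34, limma adjusted p = 0.0529). It passed with the replicate number as a block (0.0351), after median-ratio scaling (0.0274) and without IL-1b+IL-6+IL-23 GFPneg replicate 3 (0.0189). GZMB was called through IL-12+IL-21 GFPneg replicate 1: without that library its change was 1.31 (limma adjusted p = 0.22). CTSW was not called without IL-12+IL-21 GFPneg replicate 2 (1.50) or without IL-1b+IL-6+IL-23 GFPneg replicate 2 (1.60), nor with a pseudocount of 0.1 or 5 or with no filter (limma adjusted p = 0.117, 0.0606 and 0.0833), and a pseudocount of 0.1 also ended the GZMB call (0.0969). Among GFPpos cells, IL-12+IL-21 had 6 of the 7 genes higher than IL-1b+IL-6+IL-23, all but GZMA, where 4.96% of all genes were called. The changes of 5 of them ran from 2.03 ± 0.35 for GZMB to 5.84 ± 0.42 for NKG7. KLRD1 was called (limma adjusted p = 0.00563) against a group in which it was listed at 0, so that no fold is given.

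Against the TGFb+IL-6 culture the same 4 genes were higher and the same 2 lower in each of 3 comparisons of GFPneg cells, which share the 2 TGFb+IL-6 libraries. The 6 of 7 genes called compare with 20.9% of all genes for IL-12, 6.82% for IL-12+IL-21 and 15.4% for IL-1b+IL-6+IL-23. In IL-12 cells the log2 changes were 9.99 ± 0.51 for NKG7, 8.40 ± 0.43 for GZMB, 6.92 ± 0.25 for SERPINB9 and 6.08 ± 0.24 for SERPINB6B, and CTSW was lower by -2.94 ± 0.50. In IL-12+IL-21 cells they were 8.04 ± 0.51 for NKG7, 4.73 ± 0.43 for GZMB, 5.38 ± 0.25 for SERPINB9 and 4.27 ± 0.24 for SERPINB6B, with CTSW at -2.97 ± 0.50 and KLRD1 at -1.52 ± 0.37. In IL-1b+IL-6+IL-23 cells they were 2.81 ± 0.47 for NKG7, 2.76 ± 0.39 for GZMB, 3.11 ± 0.23 for SERPINB9 and 2.50 ± 0.22 for SERPINB6B, with CTSW at -4.93 ± 0.45 and KLRD1 at -2.78 ± 0.34. KLRD1 was also lower in IL-12 cells, where both libraries were at 0 (limma adjusted p = 1.02e-05). GZMA was not called in any of the 3, and the KLRD1 call in IL-12+IL-21 cells was lost without either library of that group or without TGFb+IL-6 GFPneg replicate 1 (limma adjusted p = 0.0606 to 0.147). With IL-12 GFPneg replicate 1 and TGFb+IL-6 GFPpos replicate 2 in the fit, 5, 1 and 2 of the 7 were called for IL-12, IL-12+IL-21 and for IL-1b+IL-6+IL-23. A pseudocount of 0.1 ended the CTSW call in IL-12 cells (limma adjusted p = 0.0629) and those of CTSW and KLRD1 in IL-12+IL-21 cells (0.113 and 0.287), and a filter of 5 TPM that of KLRD1 there (0.0684). With only the libraries compared, GZMA was also called, as higher in IL-1b+IL-6+IL-23 than in TGFb+IL-6 GFPneg cells. Of all called genes in the IL-12 comparison, 1512 of 2000 were higher in IL-12 cells; after median-ratio scaling, which moved the median change of all genes to 0 where it had been 0.33, 745 of 1663 were, and the 6 called members were the same with the same signs.

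**Figure D2:**
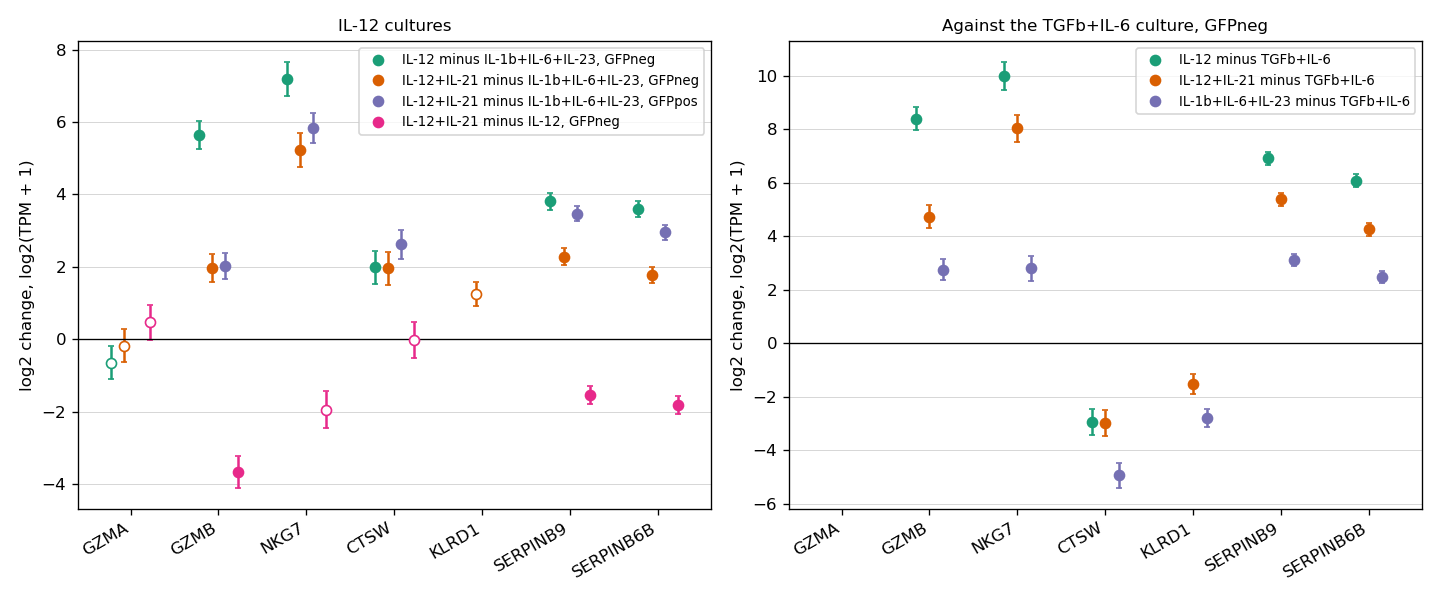
Log2 changes of the tested genes between cultures, on the log2(TPM + 1) scale, with bars for ± 1 SE of the limma fit (filled points passed an adjusted p under 0.05, open points did not; a change is left out where a whole group was listed at 0). On the left the changes against IL-1b+IL-6+IL-23 are above 0 for GZMB, NKG7, CTSW and both serpins, and those of IL-12+IL-21 against IL-12 alone are at or below 0 for the same genes; on the right GZMB, NKG7 and the serpins are above 0 and CTSW and KLRD1 below.

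Adding IL-21 to IL-12 was compared at the GFPneg gate. As IL-12 alone had no GFPpos group, added IL-21 and the part of the culture that was sorted cannot be told apart here. IL-12+IL-21 cells had 3 of the 7 tested genes lower than IL-12 cells, GZMB, SERPINB9 and SERPINB6B, and 1 higher, KLRD1, where 0.761% of all genes were called. GZMB averaged 32.6 ± 20.3 TPM in IL-12+IL-21 GFPneg and 400 ± 155 TPM in IL-12 GFPneg cells (SD, n = 2 each), a log2 change of -3.67 ± 0.43 (limma adjusted p = 0.000762). SERPINB6B averaged 98.4 ± 4.17 and 350 ± 47.7 TPM in these groups (-1.81 ± 0.24, limma adjusted p = 0.00128), and SERPINB9 58.8 ± 5.25 and 173 ± 22.9 TPM (-1.53 ± 0.25, limma adjusted p = 0.0103). KLRD1, at 2.50 and 3.02 TPM against 0 in both IL-12 libraries, passed (limma adjusted p = 0.0258), but not when any 1 of these 4 libraries was left out (0.0799 to 0.212), nor with a pseudocount of 5 (0.0566) or a filter of 5 TPM (0.0726). NKG7 did not pass at -1.95 ± 0.51 (limma adjusted p = 0.099), although its ranges did not overlap; it passed with a pseudocount of 5 (0.0342) and with only the libraries compared (0.00418). CTSW had 5.80 against 5.58 TPM on average. SERPINB9 lost its call without either IL-12+IL-21 library or without IL-12 GFPneg replicate 2 (0.0524 to 0.136). These calls rest on the choice of libraries: with the left-out IL-12 GFPneg replicate 1 and TGFb+IL-6 GFPpos replicate 2 both added to the fit none of the 7 genes was called, and the changes of SERPINB9 and SERPINB6B became 0.22 and 0.42. They had 4109 and 5608 genes at 1 TPM or more, and adding the IL-12 library alone was not tested.

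Cells with and without an active Il23r reporter were compared within each culture. In IL-12+IL-21, none of the 7 genes was called by limma, where 0.156% of all genes were and 1392 of 9592 had an unadjusted p under 0.05. GZMB was at -1.63 ± 0.39 (limma adjusted p = 0.0983), with all 3 GFPpos libraries below both GFPneg ones, and passed when only the 5 libraries of this culture were fitted (limma adjusted p = 0.044). Without IL-12+IL-21 GFPneg replicate 1 its change was -0.97. SERPINB9, at 0.89 ± 0.23, NKG7, at 0.74 ± 0.47, and SERPINB6B, at 0.35 ± 0.22, had all 3 GFPpos libraries above both GFPneg ones without passing (limma adjusted p = 0.107, 0.481 and 0.479). How many of all tested genes were separated in this way was not counted, so the separation is not a result about these genes. The median change of all genes here was 0.24, and after median-ratio scaling, which brought it to 0.01, these 3 changes were 0.61, 0.45 and 0.06, so that the SERPINB6B difference was no larger than that of genes in general.

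In the IL-1b+IL-6+IL-23 culture, GZMB was the 1 of 7 genes called, where 0.427% of all genes were. It averaged 1.54 ± 0.908 TPM in GFPpos and 6.78 ± 0.799 TPM in GFPneg cells (SD, n = 3 each; log2 change -1.69 ± 0.35, limma adjusted p = 0.0495), and the groups did not overlap. The call was lost when any 1 of the 6 libraries was left out, with changes of -1.34 to -1.87 and adjusted p of 0.088 to 0.239. SERPINB6B also did not overlap, at 15.6 ± 3.01 TPM in GFPpos and 28.2 ± 3.89 TPM in GFPneg cells, and did not pass (-0.83 ± 0.20, limma adjusted p = 0.118). SERPINB9 was at -0.30 ± 0.21. In TGFb+IL-6, with 1 GFPpos library that is assumed to vary like the other groups, none of the 7 genes was called by limma, where 0.323% of all genes were and 1617 had an unadjusted p under 0.05. SERPINB9 was at 1.27 ± 0.31 (limma adjusted p = 0.0935) and NKG7 at 1.56 ± 0.63 (limma adjusted p = 0.233). The median change of all genes in TGFb+IL-6 was 0.37, and after median-ratio scaling, which brought it to 0, SERPINB9 was at 1.05 and SERPINB6B at -0.03.

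**Figure D3:**
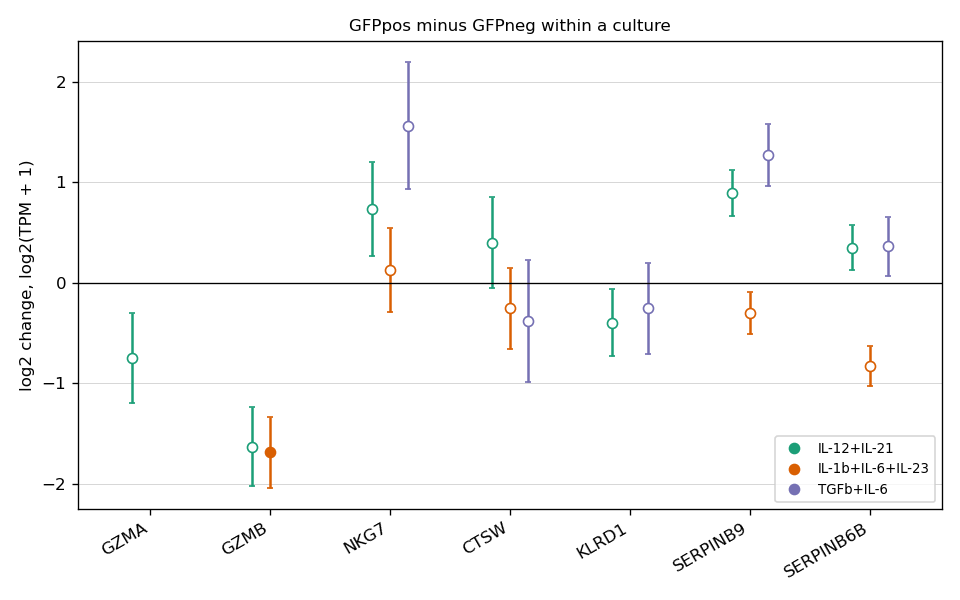
GFPpos minus GFPneg log2 changes of the tested genes within each culture, on the log2(TPM + 1) scale, with ± 1 SE of the limma fit (filled, adjusted p under 0.05; open, not passed; left out where a whole group was listed at 0). GZMB lies at -1.63 in IL-12+IL-21 and at -1.69 in the IL-1b+IL-6+IL-23 culture, whereas SERPINB9 is above 0 in IL-12+IL-21 as well as in TGFb+IL-6 and below 0 in the third culture. SERPINB6B has the same signs, but after median-ratio scaling it stood at 0.06 in IL-12+IL-21 and turned to -0.03 in TGFb+IL-6; of these only GZMB in the IL-1b+IL-6+IL-23 culture passed.

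Whether the eGFP difference itself differed between the IL-12+IL-21 culture and the IL-1b+IL-6+IL-23 culture was tested as an interaction, and 0 of 7 members and 0 of all 9592 genes passed (0% called, limma; 474 genes had an unadjusted p under 0.05). The interaction was 1.19 ± 0.31 for SERPINB9 (limma adjusted p = 0.56) and 1.18 ± 0.30 for SERPINB6B (limma adjusted p = 0.528).

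As a ratio within a library does not depend on how libraries are scaled, SERPINB9 was also set against GZMB, the protease it inhibits; this ratio was chosen after the values had been seen and is given with no test. SERPINB9 was 14.1, 12.1 and 11.4 times GZMB in IL-12+IL-21 GFPpos libraries and 1.33 and 3.02 times GZMB in GFPneg ones. It was 0.65 and 0.307 times GZMB in IL-12 GFPneg libraries. It was 14.4, 4.92 and 4.96 times GZMB in the IL-1b+IL-6+IL-23 GFPpos libraries and 1.99, 1.43 and 1.66 times in GFPneg ones. The 14.4 rests on a GZMB value of 0.49 TPM. In both cultures every GFPpos library had a higher ratio than every GFPneg library, and both IL-12 libraries had more GZMB than SERPINB9. TGFb+IL-6 GFPneg replicate 1 had a ratio of 0.774, from 0.24 over 0.31 TPM, and the other 2 libraries of that culture had GZMB at 0.

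**Figure D4:**
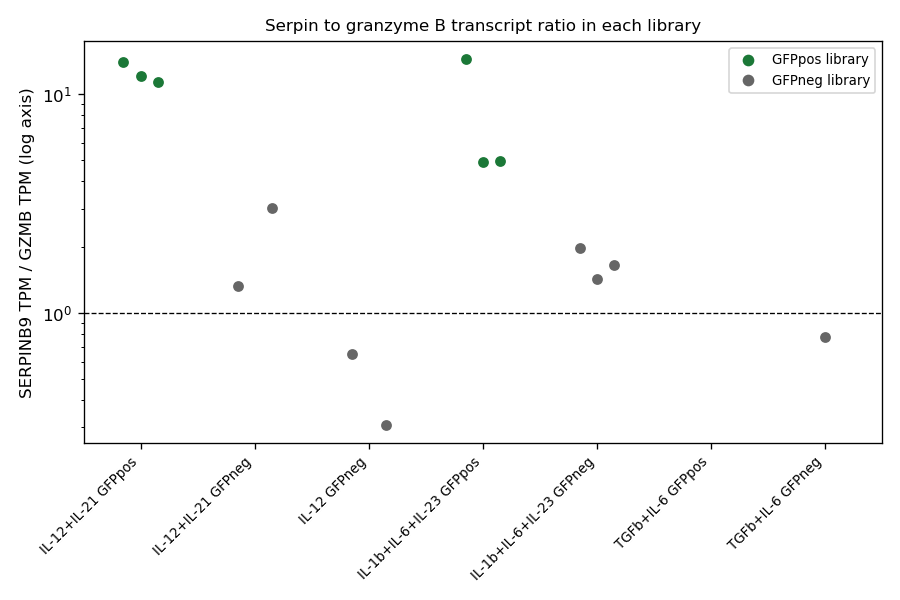
SERPINB9 TPM divided by GZMB TPM in each library with GZMB above 0, on a log axis, by group (green points GFPpos, grey points GFPneg; the dashed line marks equal levels). The 6 GFPpos libraries of IL-12+IL-21 or IL-1b+IL-6+IL-23 lie between 4.92 and 14.4, the 5 GFPneg ones of the same cultures between 1.33 and 3.02, and both IL-12 GFPneg libraries and TGFb+IL-6 GFPneg replicate 1 (0.774) below 1. The point at 14.4 is IL-1b+IL-6+IL-23 GFPpos replicate 1, with GZMB at 0.49 TPM.

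Other genes of the cytotoxic programme were read from fixed lists. Calls of list genes were not followed one by one through the fits with other libraries or settings. Of 12 genes of granule assembly, processing and release, 11 were tested. In IL-12 against IL-1b+IL-6+IL-23 GFPneg cells, where 7.01% of all genes were called, 3 were lower and none higher: CTSC, which activates granzymes by removing a dipeptide (7.25 ± 1.17 against 18.8 ± 5.15 TPM, SD, n = 2 and 3; limma adjusted p = 0.0232), CD63, a granule membrane tetraspanin, and STX11, a syntaxin of granule fusion (27.9 ± 1.25 against 58.0 ± 6.73 TPM; limma adjusted p = 0.0244). The median change of the 11 genes there was -0.22, against 0.09 over all tested genes. SRGN, the proteoglycan that holds granzymes in the granule, was abundant in all 16 libraries, at 1530 to 5028 TPM, and was higher in each of the 3 cultures than in TGFb+IL-6 at the GFPneg gate. In IL-12 against TGFb+IL-6, SRGN and STXBP2 were the 2 higher of 11, a share close to the 20.9% called over all genes.

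Of 13 natural killer receptor and adhesion genes, 4 were tested. CRTAM, an adhesion molecule of cytotoxic cells, was higher in IL-12 than in IL-1b+IL-6+IL-23 GFPneg cells (limma adjusted p = 0.00381). It had 4.18 TPM in both IL-12 libraries against 0.747 ± 0.295 TPM (n = 3). It was 1 of 4 called, where 7.01% of all genes were. Against TGFb+IL-6, IL-12 cells had CRTAM and SLAMF7 higher and KLRC1 lower, where 20.9% of all genes were called. Of 15 other clade B serpins, 4 were tested. SERPINB6A, the widely expressed relative of SERPINB6B, had 70.4 to 160 TPM in all 16 libraries and was not called in any comparison. SERPINB1A, an inhibitor of neutrophil proteases and, in the mouse, of the T helper 17 response, had 15.96 TPM in the TGFb+IL-6 GFPpos library and 12.4 and 6.80 in the GFPneg ones, and was listed at 0 in 12 of the other 13.

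All 5 death ligand and effector cytokine genes were tested, and FASL, IFNG, TNF and LTA were higher in IL-12 than in IL-1b+IL-6+IL-23 GFPneg cells, where 7.01% of all genes were called. Against TGFb+IL-6 GFPneg cells LTA, which encodes lymphotoxin alpha, was lower in all 3 cultures, with 662 ± 245 TPM in IL-12, 534 ± 31.3 in IL-12+IL-21 and 71.4 ± 15.7 in the third (IL-1b+IL-6+IL-23), against 1156 ± 4.53 TPM in TGFb+IL-6 (SD, n = 2, 2, 3 and 2). The other calls of this list went the other way: FASL, TNFSF10, IFNG and TNF were higher in IL-12 and IFNG in IL-12+IL-21. Of all genes, 20.9%, 6.82% and 15.4% were called in these 3 comparisons. IFNG, the T helper 1 cytokine, was lower in IL-12+IL-21 than in IL-12 GFPneg cells, at 181 ± 70.1 against 1297 ± 249 TPM (SD, n = 2 each). Its log2 change was -2.88 ± 0.37 (limma adjusted p = 0.00101), and 1 of the 5 was called there, where 0.761% of all genes were. With the 18 libraries of at least 4000 genes at 1 TPM, 1 gene was called in this comparison and it was higher, so the lower call of IFNG was lost. Of 9 transcription factor genes 6 were tested. TBX21, which encodes T-bet, was higher in IL-12 than in IL-1b+IL-6+IL-23 GFPneg cells (49.7 and 79.4 TPM against 1.02, 0.36 and 3.38 TPM; log2 change 4.80 ± 0.53, limma adjusted p = 2.7e-05) and ID2 lower, with the 4 others not called. EOMES, the other T-box factor of cytotoxic cells, did not exceed 0.63 TPM. Between IL-12+IL-21 and IL-12 GFPneg cells none of the 6 passed limma.

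The genes whose log2 levels were most like those of a member over the 16 libraries were picked by Pearson r among genes of at least 5 TPM on average. They were IGTP (0.967), IFNG (0.964) and TBX21 (0.962) for NKG7, IGTP (0.98), GM12250 (0.969) and GBP6 (0.965) for SERPINB9, and MS4A4B (0.968), IGTP (0.965) and BRIX1 (0.949) for SERPINB6B. For GZMB they were PPID (0.933), MRTO4 (0.932) and NHP2L1 (0.918). For CTSW they were CTLA2A (0.967), SOCS2 (0.956) and EGLN3 (0.956), and for KLRD1 EGLN3 (0.899), MAGED2 (0.89) and CDCA3 (0.888). GZMA had no gene above 0.621. Among the members, GZMB had an r of 0.903 with SERPINB6B and 0.822 with NKG7, and CTSW one of 0.845 with KLRD1 and of -0.0659 with NKG7. These values describe 16 points that fall into 7 groups.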

How the data were processed

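The authors deposited 1 table of TPM values for 21 libraries, 3 in each of 7 groups. The tools that the submitters' processing notes list are RSEM 1.2.31, Bowtie2 2.2.9 and Trimmomatic 0.32, with the build GRCm38; their settings are not given in the sources used here. All columns matched a sample by name. TPM keeps no depth, so precision rests on the replicates, and a value of 0 can be a failed estimate.

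Libraries with at least 7000 genes at 1 TPM or more were kept. Values were tested as log2(TPM + 1) with limma 3.58.1 in R 4.3.3 (group means, empirical Bayes with trend, Benjamini-Hochberg over all 9592 genes with 1 TPM in at least 3 kept libraries), after the procedure was checked on simulated data. There were 10 comparisons of groups and 1 interaction. Alternatives changed the libraries, pseudocount, filter, scaling, block and samples fitted, and 1 of them, with 18 libraries, was chosen after seeing the data. Genes are the 9 members, called genes of fixed lists with the smallest adjusted p (at most 4 for a list and comparison), and the 3 genes most like a member. Genes named outside this rule, such as close copies and chromosome neighbours, were chosen after their values were seen. Members and lists were chosen with earlier results of these data known. Positions come from GENCODE M21, promoters from RefSeq.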

Additional observations from a re-analysis of the deposited data

Results flagged for a closer look

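Some of the 5 left-out libraries held values of these genes far above those of the kept libraries of their own group, or of most kept libraries, and they enter no comparison. GZMB had 2727 TPM in TGFb+IL-6 GFPneg replicate 3 and 2118 TPM in IL-12+IL-21 GFPneg replicate 3, above the highest kept value of 509 TPM in IL-12. SERPINB9 had 188.69 TPM in the same IL-12+IL-21 GFPneg library and 105 TPM in TGFb+IL-6 GFPpos replicate 3. NKG7 had 539 and CTSW 269 TPM in that last library. PRF1 had 0.52 TPM in TGFb+IL-6 GFPpos replicate 2, where the 1 kept library of the group was at 0. These libraries had 190, 1331, 1157 and 5608 genes at 1 TPM or more, in the order TGFb+IL-6 GFPneg replicate 3, IL-12+IL-21 GFPneg replicate 3, TGFb+IL-6 GFPpos replicate 3 and replicate 2.

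SERPINB6B differed in opposite directions between GFPpos and GFPneg cells in different cultures, with no overlap of libraries in any of them, but this depended on scaling. The difference was 1.18 on the log2 scale between IL-12+IL-21 and the culture with IL-1b+IL-6+IL-23 (limma adjusted p = 0.528) and -1.19 between that culture and TGFb+IL-6, whose GFPpos group is 1 library (limma adjusted p = 0.391), and neither passed. The change itself was 0.35 in IL-12+IL-21 and 0.36 in TGFb+IL-6, beside medians of all genes of 0.24 and 0.37, and after median-ratio scaling it was 0.06 and -0.03.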

How the results depend on the processing

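The number of members called depended most on which libraries entered the fit. With all 21 libraries, no member was called (0) in IL-12+IL-21 GFPneg against IL-12 GFPneg, IL-1b+IL-6+IL-23 GFPneg or TGFb+IL-6 GFPneg, in IL-12 against IL-1b+IL-6+IL-23 GFPneg, for IL-1b+IL-6+IL-23 against TGFb+IL-6 GFPneg, in IL-12+IL-21 against IL-1b+IL-6+IL-23 GFPpos and for the IL-1b+IL-6+IL-23 sorts, GFPpos against GFPneg, and 1 in IL-12 against TGFb+IL-6 GFPneg. In that fit the change was 0.00362 for GZMB and 0.78 for SERPINB9 in IL-12+IL-21 against IL-12 GFPneg, -0.44 for SERPINB6B in IL-12+IL-21 against IL-1b+IL-6+IL-23 GFPneg and -0.98 for GZMB in the comparison of IL-1b+IL-6+IL-23 against TGFb+IL-6 GFPneg, each with its sign turned. With 18 libraries (at least 4000 genes at 1 TPM), 0 were called in IL-12+IL-21 against IL-12 GFPneg, with SERPINB9 at 0.22 and SERPINB6B at 0.42, and 0 for the IL-1b+IL-6+IL-23 sorts, GFPpos against GFPneg. In that fit 1 was called in IL-12 and in IL-12+IL-21 against IL-1b+IL-6+IL-23 GFPneg and in IL-12+IL-21 against TGFb+IL-6 GFPneg, and 2 for IL-1b+IL-6+IL-23 against TGFb+IL-6 GFPneg and in IL-12+IL-21 against IL-1b+IL-6+IL-23 GFPpos. The 5 added libraries held few genes, and the cause of each loss was not tested.

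Among the 16 libraries, GZMB for the IL-1b+IL-6+IL-23 sorts, GFPpos against GFPneg was not called (0 members) with a pseudocount of 0.1 or 5, no filter or only the libraries compared. In IL-12+IL-21 GFPpos against GFPneg, 1 member was called with only the libraries compared. In TGFb+IL-6 GFPpos against GFPneg, 1 was called with a pseudocount of 0.1 and with no filter. A pseudocount of 0.1 gave 3 in IL-12+IL-21 against IL-1b+IL-6+IL-23 GFPneg, and only the libraries compared gave 3 in IL-12 against TGFb+IL-6 GFPneg, where GZMB, SERPINB9 and KLRD1 no longer passed the filter on low values. That setting gave 4 in IL-12+IL-21 against TGFb+IL-6 GFPneg (NKG7, CTSW, KLRD1 and SERPINB6B), without GZMB and SERPINB9. It also gave 4 in IL-12+IL-21 against IL-12 GFPneg, with NKG7 in place of KLRD1. Leaving out each replicate in turn gave 2 to 3 members in IL-12+IL-21 against IL-12 GFPneg, 0 to 0 for the IL-1b+IL-6+IL-23 sorts, GFPpos against GFPneg, 4 to 5 in IL-12 and 4 to 6 in IL-12+IL-21 against IL-1b+IL-6+IL-23 GFPneg, and 5 to 6 in IL-12+IL-21 against TGFb+IL-6 GFPneg; the others kept their counts. Leaving out libraries with over 50% of TPM in ribosomal protein genes kept the same 16 libraries and gave no new value.

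Replicate numbers were not taken to pair the samples. Pairs of libraries with different numbers were not computed, so the correlations below cannot decide whether the numbers pair samples. Of 31 pairs of libraries with the same number, 8 had deviations from group means correlated above 0.1 (range -0.0861 to 0.265). As a hint from the data and not from the design, those 8 held all 3 pairs between IL-12+IL-21 GFPpos libraries and the IL-1b+IL-6+IL-23 GFPneg libraries (0.157 to 0.265) and both pairs of IL-12+IL-21 GFPneg with each of these groups (0.116 to 0.202). With the replicate block, KLRD1 was also called in IL-12+IL-21 against IL-1b+IL-6+IL-23 GFPneg (1.38), giving 6 members there, and no other call of a member changed. The block gave 135 called genes where 73 had been called in IL-12+IL-21 against IL-12 GFPneg, and 23 where 15 had been in IL-12+IL-21 GFPpos against GFPneg. Counts over all genes moved more. They were 0 to 32 with 21 libraries and 0 to 120 with 18, where the 16 libraries gave 15 to 2000 in the 10 comparisons of groups. With only the libraries compared, 51 genes were called in IL-12+IL-21 GFPpos against GFPneg (15 before), 170 in TGFb+IL-6 GFPpos against GFPneg (31 before), 44 in IL-12+IL-21 against IL-12 GFPneg (73 before), and 412 and 209 in IL-12 and in IL-12+IL-21 against IL-1b+IL-6+IL-23 GFPneg (672 and 327 before). A pseudocount of 5 gave 31 and 59 in the first pair of these, and median-ratio scaling 9 and 19. No filter gave 250 in TGFb+IL-6 GFPpos against GFPneg and 18 in the IL-1b+IL-6+IL-23 sorts (41 before), where a pseudocount of 0.1 gave 23. Depth is unknown, so values under about 1 TPM cannot be given a counting error.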
